A study of Homo sapiens with 16 samples.

Results

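The data described here compare HMC3 cells given 2R6R-HNK alone with HMC3 cells given vehicle. They are 4 of the 16 RNA-seq libraries of the series, 2 from each group, chosen by treatment and not by any measured value. HMC3 is an established human microglial cell line, so all libraries share the genotype of this line. The 2R6R-HNK libraries came from cells exposed to 400 nM of the compound for 24 h, and the vehicle libraries from cells given vehicle without drug. Neither group received estradiol (E2), and both were kept without serum or phenol red during the exposure, after a day in charcoal-stripped serum and a day without serum. The other libraries came from 2S6S-HNK or ketamine at the same 400 nM, from 0.1 nM E2, and from each of the 3 drugs with E2. The single agents are set beside 2R6R-HNK where they help to show where it differs. The sources used here do not say whether the 2 libraries of a group came from separate cultures, so the p-values measure the spread between these libraries, which may be technical.

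Ketamine is an anesthetic that blocks NMDA-type glutamate receptors and acts quickly against depression. Hydroxynorketamines are formed from it in the body, and 2R6R-HNK and 2S6S-HNK are mirror images of each other. Microglia are the resident macrophages of the brain and respond to type I interferon. Interferon binds the receptor chains IFNAR1 and IFNAR2, the kinases JAK1 and TYK2 then phosphorylate STAT proteins, STAT2 among them, and these act with IRF9 to switch on interferon-stimulated genes through a promoter element, the interferon-stimulated response element (ISRE). SOCS proteins and USP18 limit the signal. The counts report RNA only, so the phosphorylation steps of this pathway were not measured.

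The libraries held 78275204 and 58121307 counts for 2R6R-HNK and 61599174 and 60115434 for vehicle, within the range of 55300614 to 81646165 over all 16. At this depth, 3 counts correspond to 0.0383 to 0.0516 CPM, which are counts scaled by library size, in the 4 libraries, a floor that covers counting error only. Of 25 marker genes of microglia and macrophages, 7 had 0 counts in all 4 libraries, 11 others had at most 10 counts in each, and 7 were expressed enough to be tested. CX3CR1, C1QA, C1QB, C1QC, CD163, MRC1 and FCGR3A were the 7 at 0, so the defining markers of microglia were absent or nearly so in both groups, and of the 7 tested 2 rose and 1 fell. CD68, a lysosomal gene of many cell types, was at 17.4 and 20.4 CPM in vehicle and 18.5 and 17.6 CPM with 2R6R-HNK. The 14 markers of fibroblasts and mural cells summed to between 1234594 and 1656371 counts per library, against 4669 to 6988 for the 25 microglial markers. Most of the fibroblast and mural sum was FN1, with 707993 to 949281 counts, COL1A1, TAGLN and VIM, while DCN, LUM, COL3A1 and FAP had 0 to 9 counts in each library. Of the fibroblast and mural markers 11 were tested, of which 5 rose and 3 fell, and of 5 epithelial markers tested 3 rose and 0 fell. Of 7 neuronal markers tested 1 rose and 1 fell, of 7 astrocyte markers 1 rose and 2 fell, of 6 oligodendrocyte markers 2 rose and of 6 endothelial markers 1 rose. Over all genes tested, 31.7% rose and 34.9% fell. With the correction for GC content and length described below, 20.3% rose and 25.3% fell. Rises and falls with that correction were 1 and 2 for microglial markers, 5 and 2 for fibroblast and mural and 1 and 1 for epithelial. They were 1 and 2 for neuronal markers, 2 and 2 for astrocyte, 1 and 1 for oligodendrocyte and 0 and 1 for endothelial. The part of these markers in the results below was not tested.

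Of 25370 genes in the table, 16004 were tested. With an adjusted p below 0.05 and a log2 fold change beyond 1 or -1, 600 genes were changed by 2R6R-HNK. Of the tested genes, 292 rose (1.82%) and 308 fell (1.92%). In 597 of the 600 the 2R6R-HNK libraries both lay on the same side of both vehicle libraries, which was also true of 81.6% of all genes tested. Most of the response was smaller than this limit. Without a limit on the fold, 5077 genes rose (31.7%) and 5579 fell (34.9%), and 5188 of these 10656 genes moved by less than 0.5 on the log2 scale and 4868 by 0.5 to 1. The genes that rose past the limit were mostly weakly expressed. Their median level over the 4 libraries was 0.558 CPM, and 21 of 292 had a mean of at least 5 CPM, against a median of 3.02 CPM and 141 of 308 genes for those that fell. With bulk RNA, fewer cells of a type and less RNA per cell cannot be told apart.

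**Figure D1:**
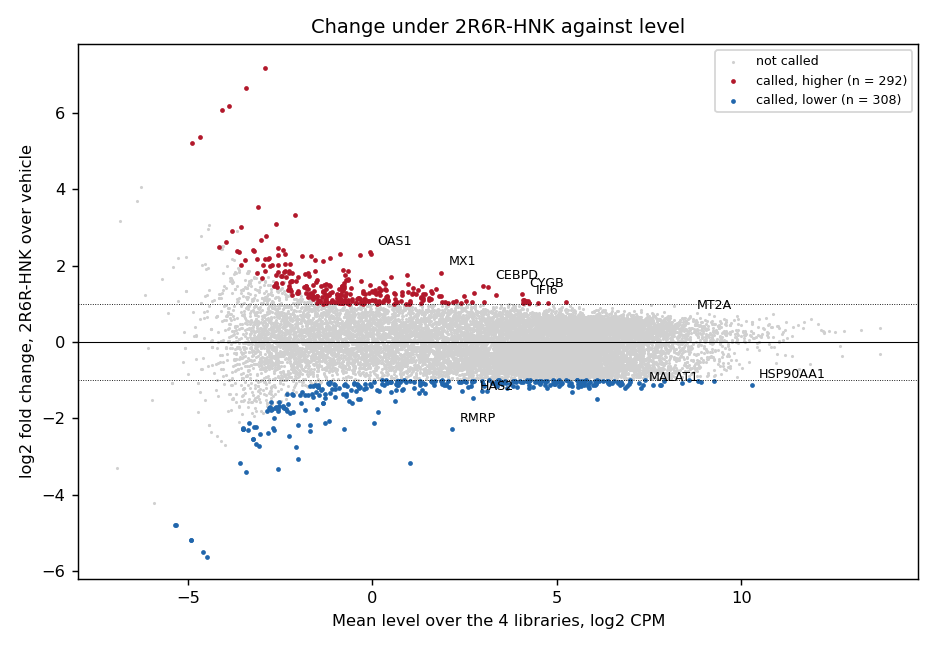
Log2 fold change under 2R6R-HNK (vertical axis) against the mean level over the 4 libraries in log2 CPM (horizontal axis), 1 point per gene, with dotted lines at a log2 fold change of 1 in either direction. Rises past the limit (292, red) gather at low levels and falls (308, blue) reach high levels; the 12 called genes beyond 4 on the log2 scale have 0 counts in both libraries of a group, so their fitted folds are no measure of size.

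The direction of change followed the base composition of the genes. Across the 15358 genes with an annotated sequence, the log2 fold change rose with the GC content of the exons (Spearman's rho = 0.749, across genes, which are not independent replicates), while its relation to exon length was weaker (rho = -0.261). Among 10 groups of genes ordered by GC content, in the lowest (24.2% to 38.8%) the median log2 fold change was -0.69, with 1 gene called higher and 103 lower. In the highest group (61.6% to 87.9%) it was 0.54, with 102 called higher and 3 lower. Both 2R6R-HNK libraries showed this, with medians of -0.67 and -0.67 over the vehicle mean in the lowest group and 0.53 and 0.51 in the highest. The genes called higher had a median exon GC content of 59.5% (283 genes) and those called lower 40.1% (292 genes), against 48.7% over all genes tested. Their promoters differed less in median GC content, with the genes called lower again below the genes called higher. The 280 bases around the transcription start had a median GC content of 64.5% in 178 genes called higher, 61.8% in 199 called lower and 65.0% in 11212 tested. The part of library preparation in this trend was not tested. Folds against vehicle below are therefore mostly followed by the fold once GC content and length had been corrected for within each library, called the corrected fold, with which 3245 genes rose (20.3%) and 4046 fell (25.3%) at an adjusted p under 0.05. With the correction, 230 genes passed the limit, 142 higher and 88 lower. Upper-quartile normalization in place of TMM also moved the split, to 402 higher and 186 lower, and DESeq2 gave 309 higher and 206 lower.

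**Figure D2:**
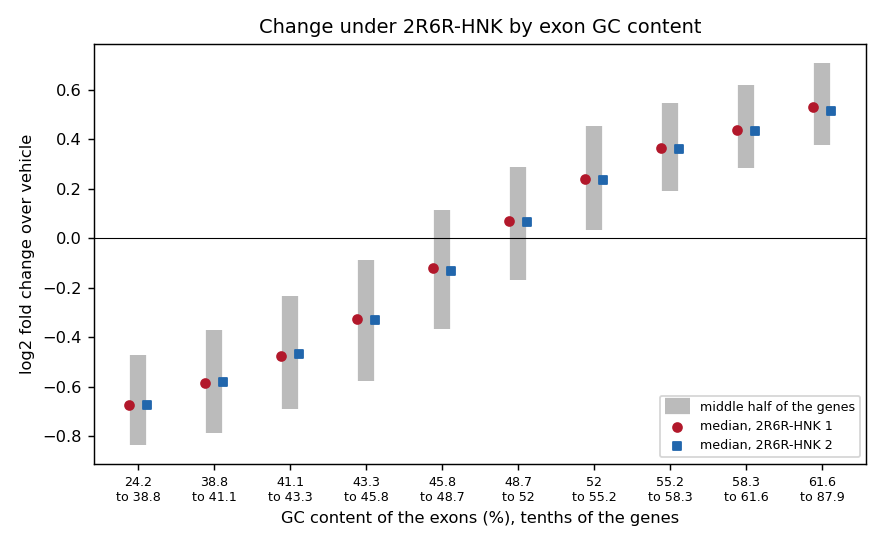
Log2 fold change over vehicle (vertical axis) in 10 groups of genes ordered by the GC content of their exons in percent (horizontal axis). Gray bars span the lower to the upper quartile of the genes and symbols mark the median for each 2R6R-HNK library, which climbs from the lowest to the highest group and is nearly the same in both libraries.

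Among genes with a mean of at least 5 CPM, the largest rises were of CPZ, CEBPD, C1R, CYGB, PDGFB, NLRC5, CDK18, COL8A2, PTGIS, GPRC5C, IFI6 and GYLTL1B. The 2 groups did not overlap for any of these 12, which follows from their choice and also held for 81.6% of all genes tested. CPZ, a secreted carboxypeptidase, was at 4.53 and 4.01 CPM in vehicle and 12.02 and 11.4 CPM with 2R6R-HNK. This is a log2 fold change of 1.46 (standard error 0.10, adjusted p = 9.45e-19) and a corrected fold of 0.94, and its exons share 2013 bp with GPR78. CEBPD, a transcription factor induced by inflammatory signals, was at 4.74 and 4.60 CPM in vehicle and 12.3 and 13.2 CPM with 2R6R-HNK. It rose by 1.45 (0.09; 2.46e-20), or 0.89 corrected. CYGB, an oxygen-binding globin, was at 9.64 and 9.90 CPM in vehicle and 23.1 and 23.6 CPM with 2R6R-HNK. It rose by 1.26 (0.07; 2.08e-21), or 0.80 corrected. PDGFB, a growth factor for mesenchymal cells, went from 6.62 and 5.72 to 14.3 and 14.5 CPM (log2 fold change 1.22, corrected 0.75). PTGIS, which makes prostacyclin, was the gene of these 12 whose fold the correction moved least, from 1.08 to 0.92, with levels of 3.74 and 3.74 CPM in vehicle and 7.90 and 7.97 CPM with 2R6R-HNK. NLRC5, an activator of MHC class I genes, and IFI6, an interferon-stimulated gene, are taken up with their groups below. For the other 4 the log2 fold changes lay between 1.05 (GYLTL1B) and 1.11 (CDK18), and between 0.50 and 0.65 after correction. C1R was the only one of the 12 whose corrected fold still reached 1.

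Among the largest falls were those of HAS2, CHORDC1, NLRP10, C18orf54, KIAA2026, VPS13A, MALAT1, FAM179B, DYNC2H1, ANXA1 and KIDINS220, which were chosen for their size and likewise had no overlap between groups. HAS2, the hyaluronan synthase, was at 9.37 and 9.95 CPM in vehicle and 3.54 and 3.48 CPM with 2R6R-HNK. It fell by 1.46 on the log2 scale (standard error 0.11, adjusted p = 1.51e-16), or by 0.84 after correction. ANXA1, a phospholipid-binding protein with anti-inflammatory activity, was at 160.5 and 162 CPM in vehicle and 71.5 and 69.1 CPM with 2R6R-HNK. Its log2 fold change was -1.19 (0.04; 8.61e-32), and -0.57 corrected. NLRP10 and KIAA2026 kept the largest corrected falls of these 11, with -0.94 and -0.96 against -1.28 and -1.28 as counted. VPS13A and DYNC2H1, a lipid transfer protein and a ciliary motor protein with long transcripts, had -1.21 and -1.20, or -0.52 and -0.54 corrected. All 11 fell in both scalings at an adjusted p under 0.05, and none of the 11 corrected folds reached 1.

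**Figure D3:**
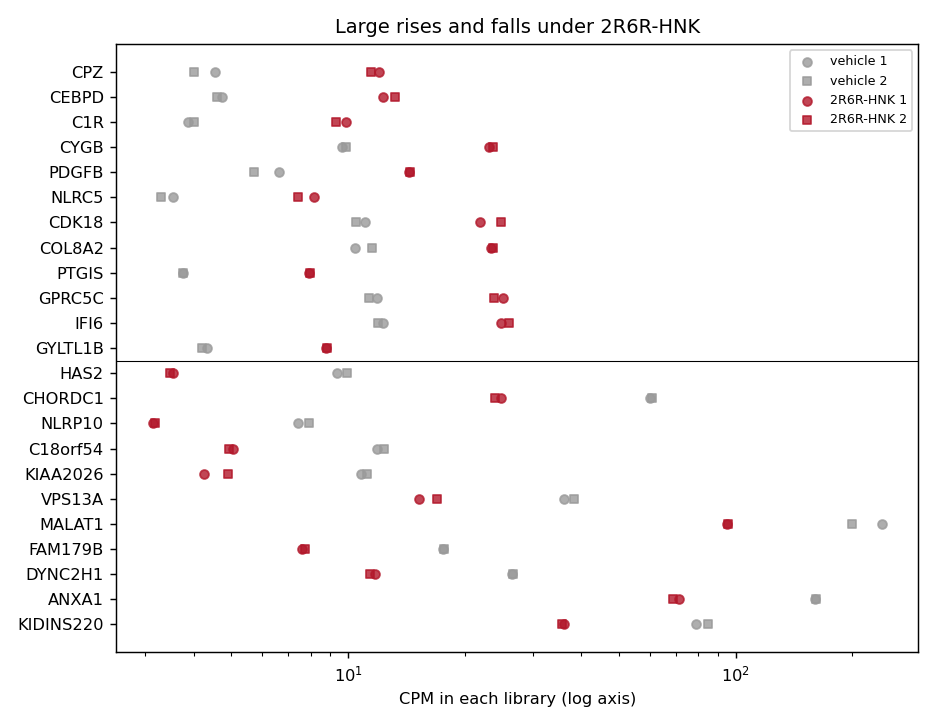
CPM on a log axis (horizontal) in each of the 4 libraries for the 12 rises and 11 falls named above, with vehicle in gray and 2R6R-HNK in red, circles for replicate 1 and squares for replicate 2. In every gene shown both red symbols lie on the same side of both gray symbols.

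To place the interferon results, the promoters of MX1 and IFI6 are shown first, since they hold matches to the core letters of the ISRE. Each is the 280 bases from 250 before to 30 after the annotated start, from RefSeq on GRCh38.p14, written in the direction of transcription, and capitals mark matches to GAAANNGAAA on either strand. MX1 (chr21:41420308-41420587, plus strand) has 1 match and IFI6 (chr1:27672163-27672442, minus strand) has 3, while the promoter of OAS1, the listed gene with the largest fold, has 0 matches in this window. The OAS1 window does hold GAAACGAAA, with 1 base between the repeats, which this pattern does not count.
MX1: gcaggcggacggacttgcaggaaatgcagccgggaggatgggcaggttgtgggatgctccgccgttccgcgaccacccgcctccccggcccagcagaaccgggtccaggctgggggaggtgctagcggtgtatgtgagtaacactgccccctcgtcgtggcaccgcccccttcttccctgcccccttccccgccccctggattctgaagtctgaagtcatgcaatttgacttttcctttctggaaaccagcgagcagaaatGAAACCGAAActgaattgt
IFI6: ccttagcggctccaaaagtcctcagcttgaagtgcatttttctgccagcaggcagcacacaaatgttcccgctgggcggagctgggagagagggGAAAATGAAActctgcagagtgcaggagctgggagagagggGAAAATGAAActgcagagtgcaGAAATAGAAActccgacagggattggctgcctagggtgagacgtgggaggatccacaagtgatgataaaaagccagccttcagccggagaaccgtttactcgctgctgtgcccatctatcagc
The letters GAAANNGAAA occurred in 26 of 40 promoters of the interferon-stimulated genes with an entry (65.0%), against 3.46% of all 27305 promoters and 2.78% of 11212 genes tested. They were in 14 of 23 promoters of the listed genes that rose under 2R6R-HNK (60.9%), and in 3.93% of the promoters of all genes called higher and 4.02% of those called lower. The STAT motif TTCNNNGAA was in 22.5% of the interferon-stimulated promoters, 7.50% of all and 6.07% of genes tested, and in 3.93% of the promoters of genes called higher and 9.05% of those called lower. A match is a run of letters and not a shown binding site.

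Of 51 interferon-stimulated genes tested, 28 rose, 8 fell and 15 did not pass, with a median log2 fold change of 0.52 against -0.02 over all genes tested. After correction the median was 0.43, 27 rose and 2 fell. Over all genes tested 31.7% rose and 34.9% fell, and 20.3% and 25.3% after correction. Past the limit of 1 there were 6 rises and 0 falls, against 1.82% and 1.92% of all genes. The study turned on this pathway, so the list is not independent of what was already known of these libraries. MX1 (chr21:42791947-42841998 on GRCh37), a GTPase that blocks viruses, was at 1.41 and 1.85 CPM in vehicle and 5.91 and 5.49 CPM with 2R6R-HNK. It rose by 1.81 on the log2 scale (standard error 0.17, adjusted p = 2.55e-13) and by 1.85 corrected, and 998 bp of its exons lie opposite transcripts of the other strand. Its relative MX2 had 16 and 17 counts in vehicle and 94 and 82 with 2R6R-HNK, and rose by 2.26 (0.36; 2.07e-07), or 2.31 corrected. OAS1 (chr12:113343661-113371024), which makes the signal that activates RNase L, had 20 and 18 counts in vehicle and 122 and 93 with 2R6R-HNK. It rose by 2.34 (0.31; 2.2e-09) and by 2.79 corrected. The 3 genes rose in both 2R6R-HNK libraries with no overlap and had as large a fold with the correction. They are expressed at low levels, and MX2 and OAS1 stayed under 2 CPM in every library.

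The more abundant interferon-stimulated genes rose by smaller folds. ISG15, a ubiquitin-like modifier, was at 27.9 and 28.2 CPM in vehicle and 52.0 and 55.0 CPM with 2R6R-HNK, and rose by 0.93 (0.05; 2e-22), or 0.43 corrected. IFI6 (chr1:27992575-27998723), which limits cell death in interferon responses, was at 12.3 and 11.9 CPM in vehicle and 24.8 and 26.1 CPM with 2R6R-HNK, and rose by 1.07 (0.07; 1.37e-19), or 0.74 corrected. IFITM3, a membrane protein that blocks viral entry, was at 90.6 and 92.5 CPM in vehicle and 152 and 154 CPM with 2R6R-HNK (log2 fold change 0.74, corrected 0.32). LGALS3BP rose by 0.52 as counted, and its corrected fold of 0.03 did not pass (adjusted p = 0.335). OAS3, IFIT1 and USP18 have exons of lower GC content and rose more after correction. OAS3 went from 8.53 and 8.90 to 17.3 and 16.2 CPM, with folds of 0.95 and 1.03 corrected. IFIT1, which binds viral RNA caps, went from 2.75 and 3.94 to 6.96 and 6.23 CPM, with 0.98 and 1.41. USP18, the negative regulator named above, had 0.88 and 1.06. OAS2 had 10 and 10 counts in vehicle and 34 and 20 with 2R6R-HNK, and its fold of 1.26 missed the threshold (adjusted p = 0.0509; 0.0302 corrected). The falls were of IFIT5 (-0.60), SP100 (-0.50), EIF2AK2 (-0.41) and others under 0.5, and the correction took these 3 to -0.02, -0.02 and 0.20, the last of them a rise (adjusted p = 0.000996). IFIT2 and IFIT3, neighbours of IFIT1 on chromosome 10, did not pass (-0.06 and -0.28; adjusted p = 0.835 and 0.156) and had 0.35 and 0.07 corrected (adjusted p = 0.22 and 0.768), although IFIT3 passed without vehicle replicate 1 (-0.46).

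**Figure D4:**
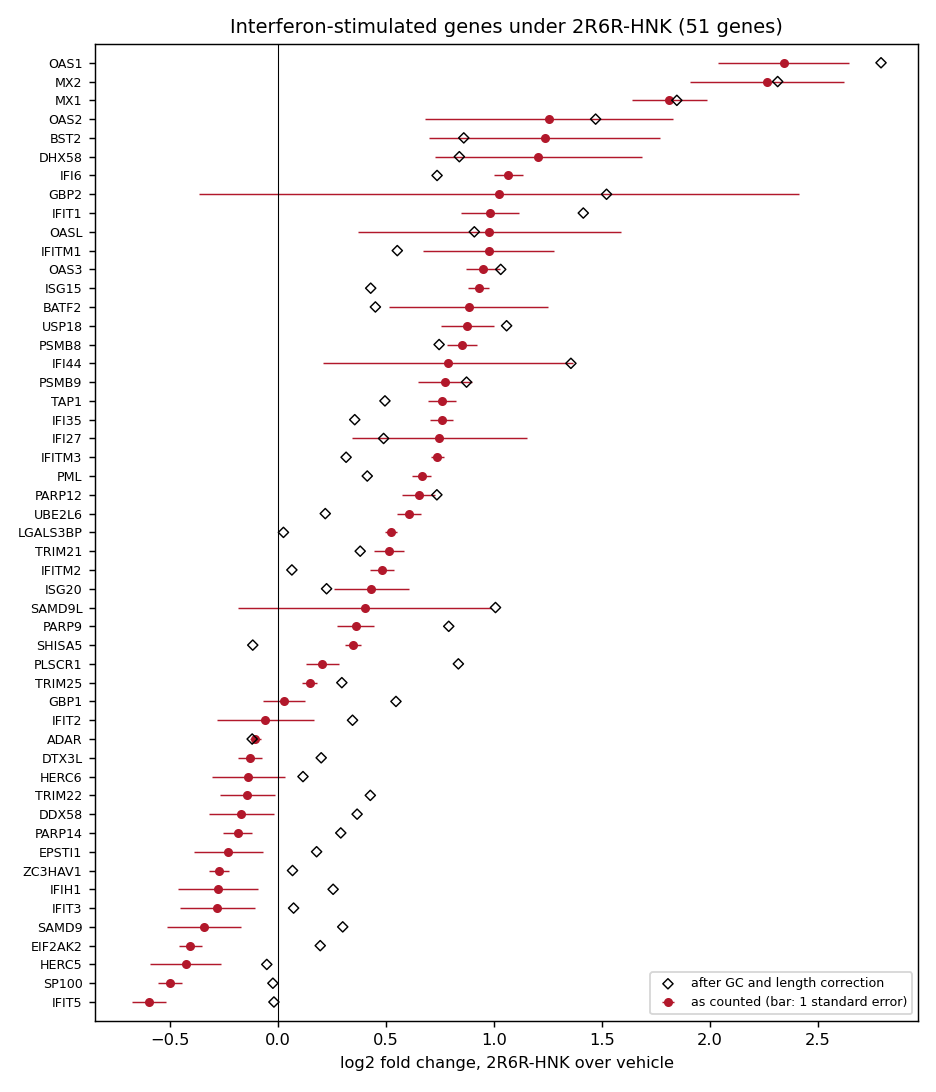
Log2 fold change under 2R6R-HNK (horizontal axis) for the 51 interferon-stimulated genes tested, ordered by the fold as counted (red, bar of 1 standard error), with the corrected fold as an open diamond. OAS1, MX2 and MX1 lie highest in both, while genes at the foot of the plot move toward or past 0 with the correction.

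The list of interferon regulatory factors also holds a protein that binds one of them, and 9 of its genes were tested. Of these, 7 rose and 0 fell as counted, against 31.7% higher and 34.9% lower over all genes. After correction 4 rose and 1 fell, against 20.3% and 25.3%. The binding protein was among the 7, with 0.62 as counted and 0.02 corrected (adjusted p = 0.783). IRF9, the partner of STAT2, was at 17.1 and 15.4 CPM in vehicle and 27.8 and 26.7 CPM with 2R6R-HNK, and rose by 0.75 (0.06; 2.94e-15), or 0.54 corrected. IRF7, which amplifies interferon production, was at 30.2 and 30.01 CPM in vehicle and 55.6 and 52.7 CPM with 2R6R-HNK, and rose by 0.85 (0.05; 2.91e-20), with 0.25 corrected. IRF3, the first factor that viral sensors activate, rose by 0.65 and by 0.20 corrected. IRF1 was at 15.4 and 14.8 CPM in vehicle and 22.8 and 23.2 CPM with 2R6R-HNK (log2 fold change 0.61, corrected 0.52). STAT2 rose from 64.8 and 68.2 to 99.0 and 101 CPM (log2 fold change 0.59, corrected 0.50). STAT3 was at 133 and 134 CPM in vehicle and 152 and 149 CPM with 2R6R-HNK, a rise of 0.17 (0.03; 9.99e-07) and 0.24 corrected. In these RNA counts STAT2, STAT3 and IRF9 rose in both scalings.

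Of 25 genes of JAK-STAT signaling and its SOCS inhibitors, 11 rose and 12 fell (7 and 9 after correction), with a median of 0.08 that took either sign as single libraries were left out (-0.18 without 2R6R-HNK replicate 1, 0.17 without vehicle replicate 1). PTPN11, a tyrosine phosphatase that acts on this and growth factor pathways, was the member past the limit. It was at 318 and 323 CPM in vehicle and 155 and 159 CPM with 2R6R-HNK, a fall of 1.03 (0.03; 9.34e-34) and of 0.64 corrected. JAK1 fell from 127 and 133 to 84.0 and 85.0 CPM (log2 fold change -0.62, corrected -0.51), and TYK2 rose from 55.3 and 52.8 to 85.1 and 82.3 CPM (0.63, corrected 0.20). JAK2 fell by 0.95 and by 0.33 corrected, and JAK3, at 2.75 and 1.83 CPM in vehicle and 3.85 and 4.16 CPM with 2R6R-HNK, rose by 0.80 and by 0.44 corrected. The kinases thus split, with JAK1 and JAK2 lower and TYK2 and JAK3 higher in both scalings. SOCS3, the feedback inhibitor of STAT3 signaling, rose by 0.45 as counted, and SOCS1, of interferon signaling, by 0.87. Their corrected folds were -0.04 and 0.29 (adjusted p = 0.438 and 0.411), and SOCS1 missed the threshold without vehicle replicate 2 (0.70). Of 20 receptor chains, 10 rose and 9 fell (6 and 5 after correction), against 31.7% and 34.9% of all genes (corrected 20.3% and 25.3%). IL7R, the interleukin-7 receptor, was at 26.4 and 25.7 CPM in vehicle and 12.5 and 11.46 CPM with 2R6R-HNK and fell by 1.12 (0.08; 2.21e-18), or by 0.66 corrected. IL6ST and LIFR, which carry the signals of the interleukin-6 family, fell by 0.89 and 0.96, and by 0.22 and 0.33 corrected. Of the interferon receptor chains, IFNAR1 fell from 56.7 and 57.4 to 36.2 and 37.6 CPM (-0.63, corrected -0.12) and IFNAR2 rose from 18 and 17.8 to 20.8 and 19.7 CPM (0.18, corrected 0.45). The rise of IFNAR2 did not pass without 2R6R-HNK replicate 1 (0.14) or without vehicle replicate 2 (0.17).

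Complement is a cascade of blood proteins that marks targets and, in the brain, synapses for removal. Of 17 complement genes, 7 rose and 3 fell, and after correction 7 rose and 1 fell (all genes: 31.7% and 34.9%, corrected 20.3% and 25.3%). C1R (chr12:7187513-7245203 on GRCh37), a protease of the first complement component, was at 3.86 and 3.99 CPM in vehicle and 9.86 and 9.32 CPM with 2R6R-HNK. It rose by 1.29 (0.10; 1.49e-16) and by 1.02 corrected, and its exons share 672 bp with C1RL. C1S, its partner protease, was at 2.34 and 1.73 CPM in vehicle and 3.30 and 3.48 CPM with 2R6R-HNK and rose by 0.73 (0.16; 8.72e-05), or 0.89 corrected. SERPING1, the inhibitor of both, rose by 0.64 and by 0.54 corrected. The surface inhibitors of complement were lower as counted. CD59 fell from 366 and 379.9 to 233 and 231 CPM (-0.68, corrected -0.40). CD46 and CD55 had -0.47 and -0.60 as counted but 0.19 and 0.06 after correction. C1R, C1S and SERPING1 therefore rose in both scalings, and of the 3 surface inhibitors CD59 fell in both.

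Of 22 genes of MHC class I antigen presentation, which display peptides to T cells, 13 rose and 5 fell, and after correction 11 rose and 4 fell (all genes: 31.7% and 34.9%, corrected 20.3% and 25.3%). NLRC5 was at 3.53 and 3.29 CPM in vehicle and 8.16 and 7.43 CPM with 2R6R-HNK and rose by 1.20 (0.11; 2.86e-13), or 0.89 corrected. PSMB8 and TAP1, a subunit of the immunoproteasome and a peptide transporter, rose by 0.85 and 0.76, or 0.75 and 0.50 corrected. HLA-B went from 104 and 103 to 145 and 141 CPM (0.46, corrected 0.18) and HLA-C from 51.2 and 53.2 to 79.0 and 78.2 CPM (0.59, corrected 0.08). HLA genes share sequence, so reads could have been split among them. The light chain B2M had -0.16 as counted and 0.30 corrected. CANX and PDIA3, chaperones of the heavy chain with many other clients, had -0.69 and -0.40, and -0.28 and 0.02 corrected.

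Metallothioneins are small proteins that bind zinc and copper, and the zinc-sensing factor MTF1 switches them on through metal response elements. The promoters of MT2A and MT1X are shown because these genes separate 2R6R-HNK from the other drugs below. They are the same 280-base windows from RefSeq on GRCh38.p14, and capitals mark TGCACNC or TGCGCNC on either strand. MT2A (chr16:56608334-56608613, plus strand) has 7 matches and MT1X (chr16:56682220-56682499, plus strand) has 4, while 27.7% of all promoters, 36.5% of those of genes tested, 34.3% of those called higher and 36.7% of those called lower have at least 1.
MT2A: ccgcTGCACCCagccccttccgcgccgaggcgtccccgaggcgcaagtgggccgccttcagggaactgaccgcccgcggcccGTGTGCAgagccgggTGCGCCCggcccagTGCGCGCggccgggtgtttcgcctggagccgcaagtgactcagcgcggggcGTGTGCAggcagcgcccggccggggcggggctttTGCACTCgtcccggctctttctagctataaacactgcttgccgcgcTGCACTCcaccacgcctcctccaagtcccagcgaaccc
MT1X: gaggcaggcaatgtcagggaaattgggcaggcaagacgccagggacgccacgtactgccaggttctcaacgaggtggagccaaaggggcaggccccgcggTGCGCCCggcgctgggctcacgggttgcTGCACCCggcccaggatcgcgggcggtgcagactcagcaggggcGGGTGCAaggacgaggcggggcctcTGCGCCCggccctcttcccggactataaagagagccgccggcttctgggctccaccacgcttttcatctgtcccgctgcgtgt
These were the metallothioneins with an entry. Of 28 metallothionein and zinc transport genes tested, 9 rose and 11 fell under 2R6R-HNK, shares near the 31.7% and 34.9% of all genes. After correction 7 rose and 7 fell. The median of 0.01 took either sign as single libraries were left out (-0.05 without 2R6R-HNK replicate 2, 0.02 without vehicle replicate 1). The 4 protein-coding metallothioneins with a mean of at least 5 CPM rose. MT2A (chr16:56642496-56643409 on GRCh37) was at 307 and 293 CPM in vehicle and 479 and 482 CPM with 2R6R-HNK, a rise of 0.68 (0.03; 8.76e-27) and 0.43 corrected. MT1E was at 77.0 and 73.6 CPM in vehicle and 115 and 120.2 CPM with 2R6R-HNK (log2 fold change 0.64, corrected 0.24), and MT1X at 7.18 and 7.08 CPM in vehicle and 12.9 and 14.1 CPM with 2R6R-HNK (0.92, corrected 0.64). MT1F was at 4.89 and 4.98 CPM in vehicle and 7.83 and 9.04 CPM with 2R6R-HNK (0.77, corrected 0.37). MT1A, at 8 and 2 counts in vehicle and 13 and 23 with 2R6R-HNK, was the member past the limit (1.72, adjusted p = 0.0356), and did not pass after correction (1.69), with DESeq2, or without 2R6R-HNK replicate 2 (1.01) or vehicle replicate 2 (1.07). Metallothionein genes resemble each other, so reads may have been divided among them, and the annotated pseudogene MT1L had 0.13 (adjusted p = 0.0601), and -0.33 corrected.

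SLC39A10 (chr2:196440701-196602426), a zinc importer, was at 34.6 and 37.3 CPM in vehicle and 18.2 and 17.8 CPM with 2R6R-HNK, with a log2 fold change of -0.996 (0.06; 3.39e-21) and -0.42 corrected. SLC39A6, a related importer, was at 68.6 and 69.5 CPM in vehicle and 34.8 and 34.6 CPM with 2R6R-HNK (-0.99, corrected -0.54). SLC39A13 rose by 0.58 and by 0.07 corrected. SLC30A1, the zinc exporter of the cell surface and also a target of MTF1, was at 13.4 and 13.3 CPM in vehicle and 11.6 and 13.3 CPM with 2R6R-HNK, which did not pass as counted (-0.10, adjusted p = 0.329) and rose after correction (0.40, adjusted p = 0.000148). MTF1 itself had -0.34, and -0.15 corrected.

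At the same dose and time, the 4 protein-coding metallothioneins were below vehicle with the mirror-image compound and the parent drug, each at an adjusted p under 0.05, so that 2R6R-HNK moved them in the opposite direction. MT2A was 1.26 higher on the log2 scale with 2R6R-HNK than with 2S6S-HNK (95% interval 1.19 to 1.32, adjusted p = 1.4e-36) and 0.80 higher than with ketamine (0.74 to 0.87, 3.07e-28). MT1E was 2.44 higher than with 2S6S-HNK (2.34 to 2.55, 4.07e-40) and 1.17 higher than with ketamine (1.08 to 1.27, 1.86e-28). MT1X and MT1F were 1.70 and 1.83 higher than with 2S6S-HNK, and 1.31 and 1.23 higher than with ketamine. SLC30A1 was 2.36 higher than with 2S6S-HNK (2.09 to 2.62, 7.73e-23) and 1.23 higher than with ketamine (1.01 to 1.46, 2.84e-15). SLC39A10 differed in the opposite direction, by -1.13 from 2S6S-HNK (-1.26 to -1.002, 1.97e-22) and -1.13 from ketamine (-1.26 to -1.005, 1.78e-22). Against vehicle, MT1E had -1.80 under 2S6S-HNK, -0.53 under ketamine and -0.36 under E2 at its own dose of 0.1 nM. After correction the differences of MT2A were 1.21 and 0.70, those of MT1E 2.40 and 1.03, and those of SLC39A10 -1.08 and -0.95, so the correction changed none of these directions. MT1L, with -0.03 (-0.17 to 0.11), did not pass between the HNK compounds.

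**Figure D5:**
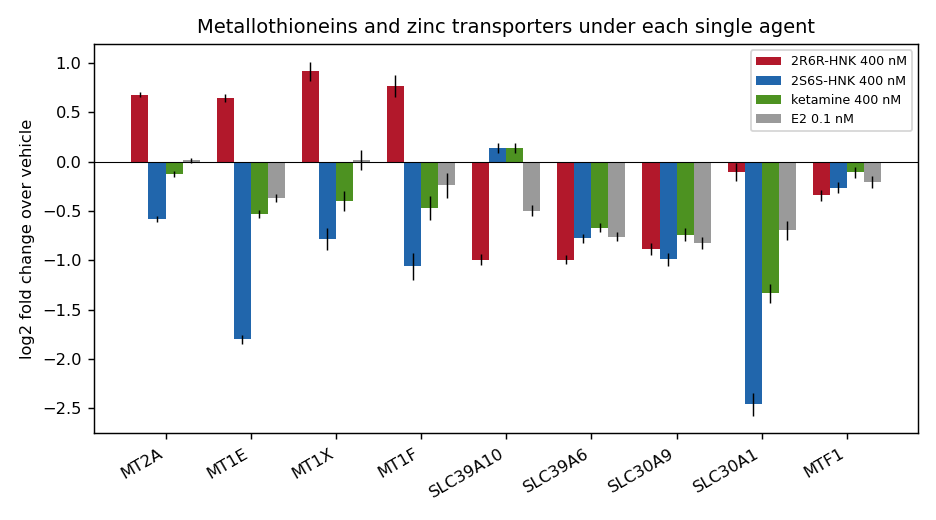
Log2 fold change over vehicle (vertical axis, bar of 1 standard error) of 4 metallothioneins, 4 zinc transporters and MTF1 under each single agent. The 4 metallothioneins lie above 0 under 2R6R-HNK (red) and below 0 under 2S6S-HNK (blue) and ketamine (green), SLC39A10 does the reverse, and SLC39A6, SLC30A9 and MTF1 lie below 0 under all 4 agents, among which E2 had a different dose.

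Heat shock proteins fold new and damaged proteins. Of 39 heat shock and chaperone genes, 28 fell and 7 rose, with a median log2 fold change of -0.54, and after correction 31 fell and 3 rose with a median of -0.31. Over all genes 34.9% fell and 31.7% rose, and 25.3% and 20.3% after correction. Against the same vehicle libraries, the list's median was also below 0 with 2S6S-HNK (-0.69), ketamine (-0.41) and 0.1 nM E2 (-0.53). HSP90AA1 (chr14:102547079-102606036 on GRCh37), the inducible cytosolic HSP90, was at 1717 and 1726 CPM in vehicle and 787 and 781 CPM with 2R6R-HNK. It fell by 1.13 (0.02; 2.7e-39), or by 0.91 corrected. CHORDC1, an HSP90 co-chaperone, was at 60.2 and 60.7 CPM in vehicle and 24.8 and 23.9 CPM with 2R6R-HNK, a fall of 1.31 (0.05; 2.05e-26) and of 0.63 corrected. HSPA8, the constitutive HSP70, was at 2293 and 2376 CPM in vehicle and 1608 and 1599.7 CPM with 2R6R-HNK (log2 fold change -0.54, corrected -0.56). HSPA6, a strictly inducible HSP70, had 54 and 53 counts in vehicle and 27 and 18 with 2R6R-HNK, and fell by 1.403 (0.38; 0.00108), or by 1.85 corrected. HSPD1 and HSP90B1, of mitochondria and the endoplasmic reticulum, fell by 0.89 and 0.89, and by 0.44 and 0.32 corrected. The falls thus included chaperones of 3 compartments. HSPA1A and HSPA1B, nearly identical copies of the inducible HSP70, did not pass as counted (0.01 and 0.06) and fell after correction (-0.47 and -0.40). HSPA1B passed as higher without vehicle replicate 1 (0.11). HSPA2 and CRYAB, a testis-enriched HSP70 and a small heat shock protein, rose by 0.53 and 0.64, and by 0.83 and 0.61 corrected.

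Of 24 long and other abundant noncoding RNAs, 14 fell and 4 rose, with a median of -0.24, and 10 fell and 5 rose after correction (all genes: 34.9% and 31.7%, corrected 25.3% and 20.3%). MALAT1 (chr11:65265111-65275544 on GRCh37), a nuclear RNA held in splicing speckles, was at 239 and 200.3 CPM in vehicle and 95.1 and 95.4 CPM with 2R6R-HNK, and fell by 1.20 (0.08; 3.97e-18), or by 0.72 corrected. Most of its exon sequence (8731 bp) overlaps annotated transcripts on the other strand, and the sources used here do not say whether strand was used in counting. NEAT1, the RNA of paraspeckles beside it on chromosome 11, had -0.39 as counted and -0.01 corrected (adjusted p = 0.908). TUG1 fell from 198 and 200.1 to 116 and 109 CPM (-0.82, corrected -0.34). The RNA subunits of RNase MRP and RNase P gave large folds that rest on vehicle replicate 1. RMRP was at 10.9 and 3.96 CPM in vehicle and 1.54 and 1.52 CPM with 2R6R-HNK, a log2 fold change of -2.28 (0.28; 3.47e-10), -2.73 corrected, and -1.37 as counted without that library. RPPH1 had 411 and 32 counts in vehicle and 32 and 22 with 2R6R-HNK, and its log2 fold change was -3.17 with all libraries and -0.42 without vehicle replicate 1, and it has no GC content here, so its fold is not corrected.

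Immediate early genes are switched on within minutes of a stimulus, here read after 24 h. Of 30, 17 rose and 3 fell, with a median of 0.34, but after correction 7 rose and 8 fell with a median of 0.01. FOS, a subunit of AP-1, was at 0.850 and 1.39 CPM in vehicle and 3.06 and 2.47 CPM with 2R6R-HNK, and rose by 1.31 (0.20; 5.84e-08), or 1.04 corrected. IER3 and DUSP5, targets of growth factor signaling, rose by 0.60 and 0.52, or 0.18 and 0.17 corrected. FOSB was at 0.785 and 0.806 CPM in vehicle and 1.62 and 1.99 CPM with 2R6R-HNK (1.17, corrected 0.79), and EGR1 at 30.7 and 31.3 CPM in vehicle and 47.2 and 45.7 CPM with 2R6R-HNK (0.58, corrected 0.24). KLF2 and KLF6, zinc finger factors that restrain inflammation and growth, fell. KLF2 was at 14.1 and 11.6 CPM in vehicle and 7.07 and 5.74 CPM with 2R6R-HNK (-0.99, corrected -1.502), and KLF6 at 103 and 108 CPM in vehicle and 63.9 and 61.0 CPM with 2R6R-HNK (-0.75, corrected -0.64). Of 31 genes of ATF4 and the integrated stress response, 21 rose and 8 fell, and 14 rose and 10 fell after correction (all genes: 31.7% and 34.9%, corrected 20.3% and 25.3%). PHGDH, the first enzyme of serine synthesis, rose from 177 and 176 to 301 and 307 CPM (0.79, corrected 0.65). SHMT2 and PCK2, further enzymes that the pathway controls, rose by 0.63 and 0.68, or 0.25 and 0.29 corrected. ATF4 itself had 0.22 as counted and -0.20 corrected, and SLC7A5, an amino acid transporter, 0.48 and -0.01.

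Of 23 cytokines and chemokines, 5 rose and 2 fell, with 16 not passing, and 5 rose and 4 fell after correction (all genes: 31.7% and 34.9%, corrected 20.3% and 25.3%). GDF15, a stress-induced cytokine, was at 1.55 and 1.86 CPM in vehicle and 4.44 and 4.21 CPM with 2R6R-HNK, and rose by 1.34 (0.14; 4.76e-12), or 0.86 corrected. LIF, an interleukin-6 family cytokine, was at 51.2 and 50.6 CPM in vehicle and 84.2 and 86.1 CPM with 2R6R-HNK, and rose by 0.74 (0.04; 2.63e-22), or 0.36 corrected. TGFB2 fell from 315 and 321 to 199 and 201 CPM (-0.67, corrected -0.25). Of 19 NF-kB pathway genes 10 rose and 4 fell, and 4 rose and 5 fell after correction. RELA, the p65 subunit, had 0.54, and 0.11 corrected. Its inhibitor NFKBIA, a target of the pathway, did not pass as counted (0.06, adjusted p = 0.455) and had -0.21 corrected.

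The next groups include genes that the study names, among them SIN3A, EEF2 and BDNF. Of 18 genes of the SIN3 corepressor, which brings histone deacetylases to promoters, 12 fell and 2 rose, with a median of -0.20, and 10 fell and 3 rose after correction, against 34.9% lower and 31.7% higher over all genes and 25.3% and 20.3% after correction. SIN3A was at 99.99 and 104 CPM in vehicle and 74.2 and 74.0 CPM with 2R6R-HNK, and fell by 0.46 (0.04; 1.05e-15), or by 0.11 corrected (adjusted p = 0.00434). HDAC2 and RBBP7, members of the complex, fell by 0.75 and 0.61, and had -0.08 (adjusted p = 0.112) and -0.29 corrected. Of 28 genes of mTOR signaling and translation elongation, 16 rose and 8 fell, and 8 rose and 8 fell after correction. EEF2, the elongation factor that EEF2K inactivates, was at 3685 and 3615 CPM in vehicle and 5052 and 5080.5 CPM with 2R6R-HNK. Its fold was 0.47 (0.02; 2.97e-28) and 0.02 corrected (adjusted p = 0.223). EEF2K was at 32.2 and 34.1 CPM in vehicle and 38.0 and 38.8 CPM with 2R6R-HNK (0.21, corrected 0.17).

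Of 22 neurotrophin and synaptic protein genes, 6 rose, 5 fell and 11 did not pass, and 3 rose and 5 fell after correction, shares at or under the 31.7% and 34.9% of all genes and near or under the corrected 20.3% and 25.3%. BDNF, the neurotrophin, was at 30.2 and 29.2 CPM in vehicle and 21.0 and 21.8 CPM with 2R6R-HNK, and fell by 0.48 (0.06; 3.88e-10), or by 0.26 corrected. DLG4, which encodes the postsynaptic scaffold PSD-95, rose by 0.41 as counted, and its corrected fold of 0.08 did not pass (adjusted p = 0.325). SYN1, a protein of synaptic vesicles, had 30 and 25 counts in vehicle and 72 and 32 with 2R6R-HNK and did not pass (0.74, adjusted p = 0.072), but passed without 2R6R-HNK replicate 2 (1.03). SORT1, a receptor that sorts BDNF, fell by 0.55 and by 0.34 corrected. Of 11 genes listed with the glutamate receptors 6 rose and 1 fell, and 1 rose and 1 fell after correction. The list also holds a gene named for NMDA receptors that does not encode a receptor subunit. It was among the 6 rises, with 0.58 as counted and -0.002 corrected (adjusted p = 0.973). GRIK4, a kainate receptor subunit, was at 1.23 and 1.66 CPM in vehicle and 2.62 and 2.54 CPM with 2R6R-HNK (0.84, corrected 0.65). GRIN2D, an NMDA receptor subunit, had 0.47 as counted and -0.12 corrected (adjusted p = 0.467), and did not pass without 2R6R-HNK replicate 1 (0.30).

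Of 47 genes of the cell cycle and DNA replication, 26 fell and 19 rose, with a median of -0.10, and 24 fell and 12 rose after correction (all genes: 34.9% and 31.7%, corrected 25.3% and 20.3%). MKI67, a marker of dividing cells, was at 504 and 522 CPM in vehicle and 259 and 253 CPM with 2R6R-HNK, with a log2 fold change of -1.003 (0.02; 6.61e-35) and -0.90 corrected. CCND1, the cyclin of the G1 phase, was at 369.8 and 374 CPM in vehicle and 216 and 214 CPM with 2R6R-HNK (-0.79, corrected -0.997). CDKN1A, the p21 inhibitor of cyclin-dependent kinases, was at 116 and 115 CPM in vehicle and 195 and 202 CPM with 2R6R-HNK (0.78, corrected 0.36). TOP2A and CENPF fell by 0.79 and 1.04, and by 0.21 and 0.46 corrected. Of 29 chromatin remodelers and histone methyltransferases 24 fell and 3 rose, and 25 fell and 3 rose after correction, with medians of -0.53 and -0.24. Their median as counted was -0.41 with 2S6S-HNK, -0.23 with ketamine and -0.37 with 0.1 nM E2. CHD6, a remodeler, fell from 136 and 136 to 82.5 and 84.3 CPM (-0.70, corrected -0.43), and KMT2A, which methylates histone H3, from 152 and 154 to 97.5 and 94.0 CPM (-0.67, corrected -0.24). Of 38 spliceosome and RNA-binding protein genes 30 fell and 6 rose, with a median of -0.55, but the corrected median was -0.05, with 16 falls and 11 rises. The median as counted was -0.64 with 2S6S-HNK, -0.52 with ketamine and -0.46 with 0.1 nM E2. SF3B1, a core splicing factor, had -0.94 and -0.33 corrected.

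The 24 collagens tested gave 10 rises and 4 falls, and 6 rises and 10 falls after correction (all genes: 31.7% and 34.9%, corrected 20.3% and 25.3%). COL1A2 was at 145 and 149 CPM in vehicle and 245 and 244 CPM with 2R6R-HNK (0.73, corrected 1.01), COL8A2 at 10.4 and 11.53 CPM in vehicle and 23.4 and 23.7 CPM with 2R6R-HNK (1.10, corrected 0.60) and COL12A1 at 86.3 and 84.7 CPM in vehicle and 48.6 and 49.7 CPM with 2R6R-HNK (-0.80, corrected -0.37). Of 77 cytosolic ribosomal protein genes 47 rose and 23 fell (43 and 22 after correction) with a median of 0.16 and no member past the limit, and of 52 nuclear-encoded respiratory chain genes 26 rose and 18 fell (28 and 12 after correction) with a median of 0.09. Of 36 genes of cholesterol and fatty acid synthesis 19 rose and 12 fell (13 and 11 after correction; median 0.20, corrected 0.02), and of 32 glycolysis and hypoxia targets 17 rose and 9 fell (median 0.13, corrected -0.04), which the correction turned to 8 rises and 14 falls. None of these last 3 groups held a gene past the limit of 1 either. HMGCS1, an early enzyme of cholesterol synthesis, fell by 0.81 and by 0.28 corrected. RPS24, a ribosomal protein, fell by 0.90 and by 0.68 corrected, while RPLP0 rose by 0.53 and by 0.51 corrected.

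Of 24 genes of the NRF2 antioxidant response 13 rose and 9 fell, and 8 rose and 9 fell after correction (all genes: 31.7% and 34.9%, corrected 20.3% and 25.3%). TXNRD1, the thioredoxin reductase, fell from 381 and 389 to 231 and 228 CPM (-0.75, corrected -0.56), while FTL, the ferritin light chain, rose from 1382 and 1403 to 2323 and 2334 CPM (0.74, corrected 0.42). Of 23 p53 targets 12 rose and 8 fell, and 9 rose and 6 fell after correction. FDXR, a mitochondrial electron carrier, rose by 0.85 and by 0.37 corrected, and RRM2B, a ribonucleotide reductase subunit, fell by 0.83 and by 0.23 corrected. Of 19 circadian clock genes 6 rose and 7 fell, and 5 rose and 5 fell after correction, shares near those of all genes. CLOCK, a core activator of the cycle, fell from 43.6 and 44.2 to 22.2 and 21.1 CPM (-1.02, corrected -0.38), and NR1D2, a nuclear receptor that represses within it, from 43.97 and 41.4 to 22.6 and 20.9 CPM (-0.97, corrected -0.41). Of 24 amino acid carriers 10 rose and 8 fell, and 5 rose and 7 fell after correction, of which the falls as counted and both corrected shares were near those of all genes. SLC38A1 and SLC38A2, glutamine carriers, fell by 0.82 and 0.82, or 0.43 and 0.21 corrected.

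Of 16 genes named C/EBP or listed as glucocorticoid-responsive, 5 rose and 7 fell (3 and 7 after correction). Over all genes the shares were 31.7% and 34.9% (corrected 20.3% and 25.3%). CEBPD was the member past the limit. The falls include a gene with the C/EBP name that lies outside this family of factors (-0.90, corrected -0.36). NR3C1, the glucocorticoid receptor, and its target FKBP5 fell by 0.68 and 0.63, and by 0.26 and 0.17 corrected. Of 19 metalloproteinase and inhibitor genes 7 rose and 4 fell, and 4 rose and 7 fell after correction. ADAMTS1, which cuts proteoglycans, fell from 376 and 382 to 214 and 216 CPM (-0.82, corrected -0.58). Of 13 estrogen receptor genes and targets 4 rose and 3 fell, in cells that were given no estradiol, and 3 rose and 4 fell after correction. NRIP1, a corepressor of nuclear receptors, fell by 1.14 and by 0.55 corrected, and IGFBP4, which binds insulin-like growth factors, rose by 0.97 and by 0.43 corrected. Of 15 enzymes and regulators of ketamine and estradiol metabolism 7 rose and 4 fell (4 and 1 after correction), and HSD17B14, a steroid dehydrogenase, rose by 0.91 and by 0.45 corrected. Of 17 genes of prostanoid synthesis and reception 4 rose and 3 fell (3 and 2 after correction). PTGIS rose as described above, and PTGES3 fell by 0.53 and by 0.33 corrected.

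The mirror-image compound and the parent drug were given at the same dose and time, which allows a test of each difference at equal dose. Between 2R6R-HNK and 2S6S-HNK, 6959 genes differed at an adjusted p under 0.05 (43.5%), of which 405 differed by at least 1 on the log2 scale, 163 higher and 242 lower with 2R6R-HNK. Between 2R6R-HNK and ketamine, 7265 differed (45.4%), 135 of them by at least 1, 38 higher and 97 lower. From E2, another agent at another dose, 53 genes differed by at least 1, 25 higher and 28 lower with 2R6R-HNK. After correction the counts past 1 were 411 (2S6S-HNK), 119 (ketamine) and 46 (E2). Of the 292 genes called higher against vehicle, 87 differed from 2S6S-HNK and 49 from ketamine at an adjusted p under 0.05, and of the 308 called lower, 119 and 145 differed. From E2, 33 of the 292 and 125 of the 308 differed. Over all genes tested, 1893 were higher and 1915 lower with 2R6R-HNK than with E2 at that adjusted p. Each comparison with vehicle uses the same 2 vehicle libraries, so the folds against vehicle are given side by side only.

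Among the genes called under 2R6R-HNK with a mean of at least 5 CPM, CDK18, a cyclin-dependent kinase, and MALAT1 were furthest below 2S6S-HNK. CDK18 was 1.11 above vehicle with 2R6R-HNK and 2.43 with 2S6S-HNK, a difference of -1.32 (-1.45 to -1.19, adjusted p = 1.23e-24). MALAT1 was -1.20 against -0.11, a difference of -1.09 (-1.28 to -0.90, 1.26e-15), and PSG2, of the pregnancy-specific glycoproteins, which resemble each other, -1.04 against -0.07. IER5L and SECTM1 were furthest above. IER5L was 1.01 against 0.04, a difference of 0.97 (0.81 to 1.13, 1.1e-16), and SECTM1, a secreted and membrane protein of immune cells, 1.01 against 0.32. NLRC5 was 0.60 higher (0.35 to 0.85, 8.27e-06). After correction the differences were -1.28 for CDK18, -1.02 for MALAT1, 0.92 for IER5L and 0.67 for NLRC5, each with an adjusted p under 0.05. Against ketamine, the falls of C18orf54, RPS6KA6, LCOR and DOCK4 were deeper, with differences of -0.76, -0.71, -0.70 and -0.70, and the rises of CYGB, SECTM1, NME3 and GYLTL1B were larger by 0.43, 0.40, 0.40 and 0.29. After correction the 4 deeper falls still differed, by -0.61, -0.51, -0.44 and -0.48, and of the 4 larger rises GYLTL1B no longer did (0.12, adjusted p = 0.337).

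Of the 51 interferon-stimulated genes, 21 differed from 2S6S-HNK and 24 from ketamine at an adjusted p under 0.05, shares near the 43.5% and 45.4% of all genes, and the list's median against vehicle was 0.52 with 2R6R-HNK, 0.45 with 2S6S-HNK and 0.46 with ketamine. Single genes are therefore given for their own values. MX1 was 0.39 higher with 2R6R-HNK than with 2S6S-HNK (0.04 to 0.74, adjusted p = 0.0347) and 0.79 higher than with ketamine (0.44 to 1.14, 1.67e-05). The MX1 difference from 2S6S-HNK did not pass with DESeq2 (0.40, adjusted p = 0.101) or without 2R6R-HNK replicate 1 (0.33, 0.179) or replicate 2 (0.44, 0.0523). IFIT1 was 0.61 higher (0.31 to 0.91, 0.000118) and 0.39 higher (0.11 to 0.68, 0.00701), of which the difference from ketamine did not pass without 2R6R-HNK replicate 1 (0.31, 0.121). IRF1 was 0.78 higher than with 2S6S-HNK (0.62 to 0.94, 1.42e-13), where it was -0.17 against vehicle, and LIF 0.70 higher (0.61 to 0.79, 2.51e-20). HLA-B and STAT2 went the other way, -0.57 (-0.63 to -0.50, 2.61e-22) and -0.35 (-0.44 to -0.27, 1.27e-11) from 2S6S-HNK, as did STAT3 with -0.34 (-0.40 to -0.27, 4.51e-14). For C1R and OAS3 the difference from 2S6S-HNK did not pass, with intervals of -0.32 to 0.08 and -0.06 to 0.27. After correction that of OAS3 passed (0.19, adjusted p = 0.0251). BDNF was -0.48 with 2R6R-HNK and 0.17 with ketamine, a difference of -0.65 (-0.78 to -0.52, 6.18e-14), and KLF2 -0.99 against 0.04, a difference of -1.03 (-1.26 to -0.80, 1.58e-12). Corrected, the differences from 2S6S-HNK were 0.47 (MX1), 0.65 (IFIT1), 0.84 (IRF1), 0.72 (LIF), -0.54 (HLA-B), -0.30 (STAT2) and -0.28 (STAT3), and those from ketamine 0.90 (MX1), 0.54 (IFIT1), -0.51 (BDNF) and -1.20 (KLF2), each with an adjusted p under 0.05. With E2 at 0.1 nM, which is another agent at another dose, MX1 was 0.15, IFIT1 0.07, C1R 0.87 and BDNF -0.24 against vehicle.

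Of the 600 genes called, 146 were called with and without the correction, and 125 of these have a GC content. With a mean of at least 1 CPM there were 23, of which 20 have a GC content. These genes were picked out after their values were seen. Those that rose include MX1, C1R and FOS, described above, and ELF3, ANPEP, OPRL1 and CHRNA7. ELF3, an epithelial transcription factor, was at 0.932 and 0.822 CPM in vehicle and 2.95 and 2.92 CPM with 2R6R-HNK (1.74, corrected 1.47). ANPEP, the aminopeptidase CD13, was at 0.687 and 0.655 CPM in vehicle and 2.29 and 2.10 CPM with 2R6R-HNK (1.71, corrected 1.29). OPRL1, the nociceptin receptor, was at 0.817 and 1.21 CPM in vehicle and 2.60 and 3.24 CPM with 2R6R-HNK (1.52, corrected 1.02), and its exons share 2724 bp with a transcript on the other strand. CHRNA7, a nicotinic acetylcholine receptor subunit with a partial duplicate in the genome, was at 0.785 and 0.806 CPM in vehicle and 1.58 and 2.12 CPM with 2R6R-HNK (1.20, corrected 1.51). Of those that fell, NHS, a regulator of the actin skeleton, was at 1.81 and 1.54 CPM in vehicle and 0.415 and 0.350 CPM with 2R6R-HNK (-2.12, corrected -1.80). NHS was also lower than with 2S6S-HNK (difference -1.38, -2.10 to -0.65, adjusted p = 0.000281) and than with ketamine (-1.70, -2.38 to -1.02, 3.15e-06). HIST1H1B, a linker histone, was at 1.77 and 1.04 CPM in vehicle and 0.726 and 0.630 CPM with 2R6R-HNK (-1.04, corrected -1.404), and the fold was -0.61 and did not pass without vehicle replicate 1.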

How the data were processed

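The 16 libraries hold 8 conditions with 2 replicates each. Per the labels and the study's methods, RNA was amplified into cDNA (Ovation RNA-seq v2), sequenced as paired 100-base reads, and aligned to hg19 with TopHat2 2.0.14 and Bowtie2 2.2.6 (the methods give older versions of both), and uniquely mapped pairs were counted per gene with featureCounts 1.4.6. The deposited values are the raw counts per gene that the authors obtained. Whether strand was used in counting, and which samples shared a lane, is not given in the sources used here. The library preparation has no molecular identifiers, so counts are reads and not molecules.

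Genes with enough counts were kept (filterByExpr, 16004 of 25370), scaled by TMM and tested with edgeR 4.0.16 (quasi-likelihood, 1 model over all 8 groups, 8 residual degrees of freedom, R 4.3.3) with Benjamini-Hochberg adjustment over all genes tested. The limit for a called gene was an adjusted p below 0.05 with a log2 fold change beyond 1 or -1. Passed, rose or fell in a gene list means an adjusted p under 0.05 at any fold. CPM use the TMM-scaled library sizes, and folds in parentheses or after a level are log2 fold changes. Standard errors come from the same test, and the intervals of differences between drugs are 95% intervals on the 8 residual degrees of freedom, with p-values adjusted over genes within each comparison. The spread is shared among groups, so its precision rests on all 16 libraries (common coefficient of variation 2.81%). The corrected fold adds loess offsets for exon GC content and length, available for 15358 of the genes tested (96.0%) from GENCODE models on GRCh37. A gene without them kept its uncorrected scaling. The script was tested on simulated data. The alternatives were DESeq2 1.42.0, other normalizations, filters and depths, a replicate block, and each replicate left out.

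Named genes were the 12 largest rises and falls with a mean of at least 5 CPM, members of lists by lowest p or by role, genes the study names, and the 4 largest differences from each drug. Some genes that this rule names are not reported here. The members and lists were chosen with earlier results of these data known.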

Additional observations from a re-analysis of the deposited data

How the results depend on the processing

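The 600 changed genes (292 raised, 308 lowered) became 230 (142 and 88) after the GC and length correction and 220 (134 and 86) with the correction and the replicate block, and upper-quartile normalization left 186 lowered. Leaving out 1 library gave 594 to 671 changed genes, 272 to 342 raised and 283 to 355 lowered. The 405, 135 and 53 genes that differed from 2S6S-HNK, ketamine and E2 ranged over 357 to 409, 120 to 143 and 39 to 56, were 252, 54 and 26 where every library had at least 10 counts, and were 76 (ketamine) and 7 (E2) with DESeq2. The cause was not tested, except that the filter tests fewer genes. The replicate block alone gave 596 changed genes and moved none of the 167 genes named in the text across the threshold. The replicate numbers are only shared, since same-numbered vehicle and 2R6R-HNK libraries did not deviate together (r = -0.0158).

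Of the 167 genes named in the text, 19 turned direction with the correction, and with the correction and the replicate block their values were as follows in that order. They were ATF4 (-0.20, -0.20), B2M (0.30, 0.30), CD46 (0.19, 0.19), CD55 (0.061, 0.060), COL1A1 (-0.092, -0.092), EIF2AK2 (0.20, 0.20), FN1 (0.031, 0.032), GRIN2D (-0.12, -0.11), HSPA1A (-0.47, -0.47), HSPA1B (-0.40, -0.40), IFIT2 (0.35, 0.34), IFIT3 (0.072, 0.078), MT1L (-0.33, -0.33), NFKBIA (-0.21, -0.21), PDIA3 (0.024, 0.024), SLC30A1 (0.40, 0.40), SLC7A5 (-0.0090, -0.0090), SOCS3 (-0.040, -0.041) and TAGLN (-0.028, -0.028). CD68 turned with upper-quartile normalization (0.015) and ranged from -0.18 to 0.058 as libraries were left out, and IFIT2, which did the same (0.020), ranged from -0.17 to 0.059. OAS2 passed in 6 alternatives. The alternatives for single differences between drugs were chosen after seeing the data. Low counts limit OAS2, SYN1, MT1A and HSPA6, and 203 of the 292 raised genes had a mean under 1 CPM.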
